A study of Mus musculus with 19 samples.

Results

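Granule neuron progenitors (GNPs) were compared with CD133-positive neural stem cells (NSCs) of the mouse cerebellum, across all genes measured. The comparison takes 7 of the 19 arrays of the study, the 4 titled GNP and the 3 titled NSC, and 12148 of 18193 genes passed the filter on dim values and were tested. Each array is an Affymetrix Mouse430+2 chip, which reads a gene by 1 or more probe sets, and its values are log2 signals, so that a difference of 1 is a doubling of array signal. The study set out to describe the expression profile of a further population, the Nestin-expressing progenitors (NEPs, 4 arrays), and to compare tumors that arise from NEPs and from GNPs (4 arrays each).

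GNPs are labelled as Math1+ neuronal progenitors and NSCs as CD133+, Lin- cerebellar progenitors, both from C57BL/6 mice and both taken from the cerebellum with no culture or treatment. No transgene is named for either group. The labels do not define the lineage antigens behind Lin-, nor do they give age, sex, pooling of animals or how Math1 was detected. The tumor cells, used here only for values beside the comparison, came from Math1-CreERT2/Ptch1C/C mice (GNP tumor) and Nestin-CreERT2/Ptch1C/C mice (NEP tumor), in which a tamoxifen-inducible Cre under the Math1 or the Nestin promoter acts on the Hedgehog receptor gene Ptch1. The labels do not say whether arrays of a group came from separate animals, so p-values measure only the spread between these arrays.

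Granule neuron progenitors arise from the rhombic lip under the transcription factor Atoh1 (also called Math1), divide in the outer layer of the young cerebellum in response to Sonic hedgehog, and leave the cycle to become granule neurons. Cerebellar cells with CD133, a membrane protein encoded by Prom1, and without lineage antigens are described as multipotent cells of the white matter that can form astrocytes, oligodendrocytes and neurons. The other territory of the embryonic cerebellum, the ventricular zone, is marked by the transcription factor Ptf1a and gives the GABAergic neurons. The meninges that cover the cerebellum, its vessels and its blood-derived cells have expression profiles of their own, so marker lists for them were read beside the neural ones.

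The markers set the pattern (the plot of 6 genes on each array). Atoh1 had a log2 signal of 8.77, 8.96, 8.80 and 8.89 on the 4 GNP arrays and of 8.94, 8.92 and 8.93 on the 3 NSC arrays. The groups overlap, and the difference was 0.08 (NSC minus GNP), with a 95% interval of -1.02 to 1.17 in the fit of all 19 arrays and of -0.10 to 0.25 in the fit of the 7 arrays alone. Prom1 stood at 7.16, 7.46, 7.27 and 7.07 in GNPs and at 7.95, 8.11 and 8.17 in NSCs. All NSC arrays lay above all GNP arrays, by 0.84 (SE 0.14, limma adjusted p = 0.00026), which is 1.79-fold. CD133 was used to collect the NSCs, so this difference checks the label and is no finding. The gene was above the array median on the GNP arrays too.

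Col3a1, a fibrillar collagen of fibroblasts, gave 3.54, 3.45, 3.63 and 5.35 in GNPs against 10.94, 11 and 10.94 in NSCs. Aqp4, the water channel of astrocytes, gave 2.09, 2.10, 2.12 and 4.67 against 9.36, 9.41 and 9.31. Both are low on 3 GNP arrays, higher on GNP array 4 and far higher on every NSC array. The differences were 6.97 (SE 0.78, limma adjusted p = 3.89e-06) and 6.62 (SE 0.59, limma adjusted p = 3.3e-07), or 125-fold and 98.1-fold of array signal. Prom1 was thus higher in NSCs than in GNPs, but its mean of 8.61 in NEPs was above the NSC mean of 8.08, so it does not single out the NSC arrays. Beside an Atoh1 signal like that of GNPs, these arrays carried a strong collagen and astrocyte signal.

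**Figure D1:**
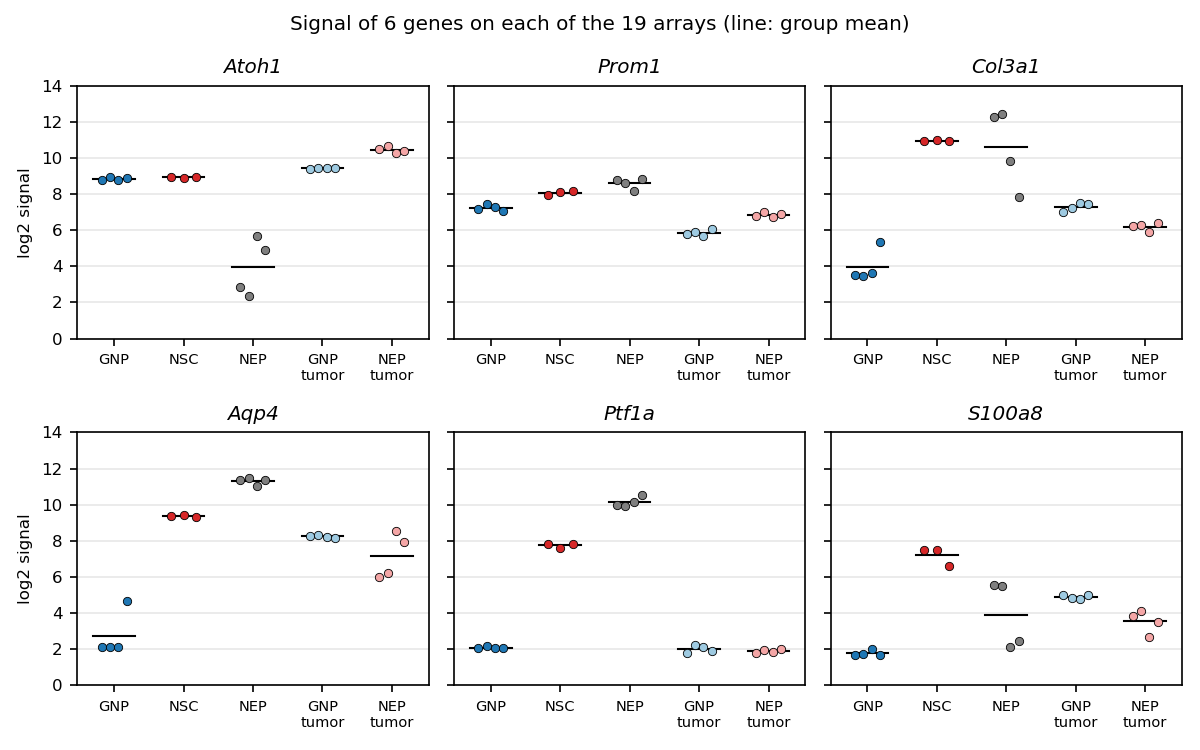
Log2 signal (y axis) of 6 genes on each array of the 5 groups (x axis, a point per array, a line at the group mean). Atoh1 is level in GNPs and NSCs at 8.85 and 8.93, while Col3a1, Aqp4, Ptf1a and S100a8 are higher on every NSC array than on every GNP array, with GNP array 4 above the other 3 for Col3a1 and Aqp4.

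The bases just before the transcription start are shown for 3 pairs of genes on which the comparison turns. They are the bHLH factors of the 2 cerebellar territories, the shared Atoh1 and the NSC-high Ptf1a, then the NSC-high collagens Col3a1 and Col1a2, and the neighbouring granulocyte genes S100a8 and S100a9. Each run is the 150 bases before the start in RefSeq (build GRCm38.p6), 5′ to 3′ on the gene's strand, with capitals for CCAAT on either strand, TATAAA on either strand, and the palindromic E-box CAGCTG. All 6 genes were matched.
Atoh1, chr6:64728975-64729124, plus strand: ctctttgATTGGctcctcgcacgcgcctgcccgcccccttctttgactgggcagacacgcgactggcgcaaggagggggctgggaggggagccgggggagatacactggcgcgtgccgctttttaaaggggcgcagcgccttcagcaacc
Ptf1a, chr2:19445513-19445662, plus strand: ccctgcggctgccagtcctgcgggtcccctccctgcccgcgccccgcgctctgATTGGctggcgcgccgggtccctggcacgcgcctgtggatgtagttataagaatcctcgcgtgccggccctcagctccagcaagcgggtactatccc
Col3a1, chr1:45311388-45311537, plus strand: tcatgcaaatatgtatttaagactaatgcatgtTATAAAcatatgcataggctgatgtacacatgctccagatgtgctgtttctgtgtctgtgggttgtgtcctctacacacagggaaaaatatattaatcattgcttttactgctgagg
Col1a2, chr6:4505468-4505617, plus strand: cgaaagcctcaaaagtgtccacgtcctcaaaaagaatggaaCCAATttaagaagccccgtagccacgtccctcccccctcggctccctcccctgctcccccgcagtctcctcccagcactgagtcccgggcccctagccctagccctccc
S100a8, chr3:90668921-90669070, plus strand: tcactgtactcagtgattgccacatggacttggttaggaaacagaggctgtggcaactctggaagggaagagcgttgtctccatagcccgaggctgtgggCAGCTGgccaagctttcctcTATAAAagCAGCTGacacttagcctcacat
S100a9, chr3:90695722-90695871, minus strand: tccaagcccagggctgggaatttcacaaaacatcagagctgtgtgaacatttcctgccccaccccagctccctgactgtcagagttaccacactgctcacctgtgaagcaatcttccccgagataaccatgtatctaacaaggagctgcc
Of 32851 promoters of this length, counted with those of a chromosome left out, 24.5% hold CCAAT, 7.57% TATAAA and 8.39% CAGCTG on either strand. The Atoh1, Ptf1a and Col1a2 windows hold CCAAT or its complement, the Col3a1 and S100a8 windows TATAAA, and the S100a8 window CAGCTG at 2 places. The S100a9 window holds none of the 3. These matches describe the letters and show no binding.

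Facts of the whole series bear on all that follows. The titles of the GNP and NEP arrays share a number, and those of the NSC and tumor arrays share another. What it stands for is not stated. Arrays with the lower number are here called the first run and those with the higher number the second. Run in this sense and group cannot be told apart in GNP against NSC. Poly-A spike-ins, added before labelling, had a mean signal of 8.93 ± 0.24 (SD, n = 4) in GNPs and 6.68 ± 0.17 (n = 3) in NSCs. The 3' minus 5' signal of actin was 0.52 ± 0.018 and 0.65 ± 0.011. Across genes, which are not independent replicates, GNP arrays correlated at 0.991 to 0.998 with each other, NSC arrays at 0.997, and GNP with NSC arrays at 0.956 to 0.963. GNP array 4 stood apart from the other GNP arrays: its immediate early genes had a median signal of 4.38, against 6.08 to 6.69 on the others, and its astrocyte and Bergmann glia markers of 3.74, against 3.12 to 3.40. Counts without it are therefore given for all genes and for the lists whose count it moves by more than 1.5 times. In bulk samples such as these, fewer cells of a type and less RNA per cell cannot be told apart.

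In the fit of all 19 arrays, 4409 of 12148 genes (36.3%) were called at an adjusted p below 0.05, 1586 (13.1%) higher and 2823 (23.2%) lower in NSCs. By size the balance turned, since 598 genes (4.92%) were called and at least 2-fold higher and 280 (2.3%) were called and at least 2-fold lower. At least 4-fold, 251 genes were higher and 21 lower, and at least 16-fold, 59 were higher; the largest fall was 3.36. The median difference over all genes tested was -0.06. The GNP arrays were the dim side of the large differences: 251 of the 598 genes had a GNP mean under the array median (here called dim), so that their folds are folds of array signal. Without GNP array 4, 1533 genes were called higher and 2607 lower. The spread of a gene is shared by all groups in this fit and is widest among NEP arrays (median SD 0.209, against 0.097 in NSCs). The 7 arrays alone called 2156 genes (17.7%) higher and 3292 (27.1%) lower, of which 4231 in all were called the same way in both fits. Counts of a list from this second fit are given where they differ by more than 1.5 times or from 0. Every list count below is to be read beside these shares of all genes, 13.1% and 23.2%, or 17.7% and 27.1% with the 7 arrays. The arrays of the groups did not overlap for 2531 genes higher and 3655 lower in NSCs, so a lack of overlap was common.

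**Figure D2:**
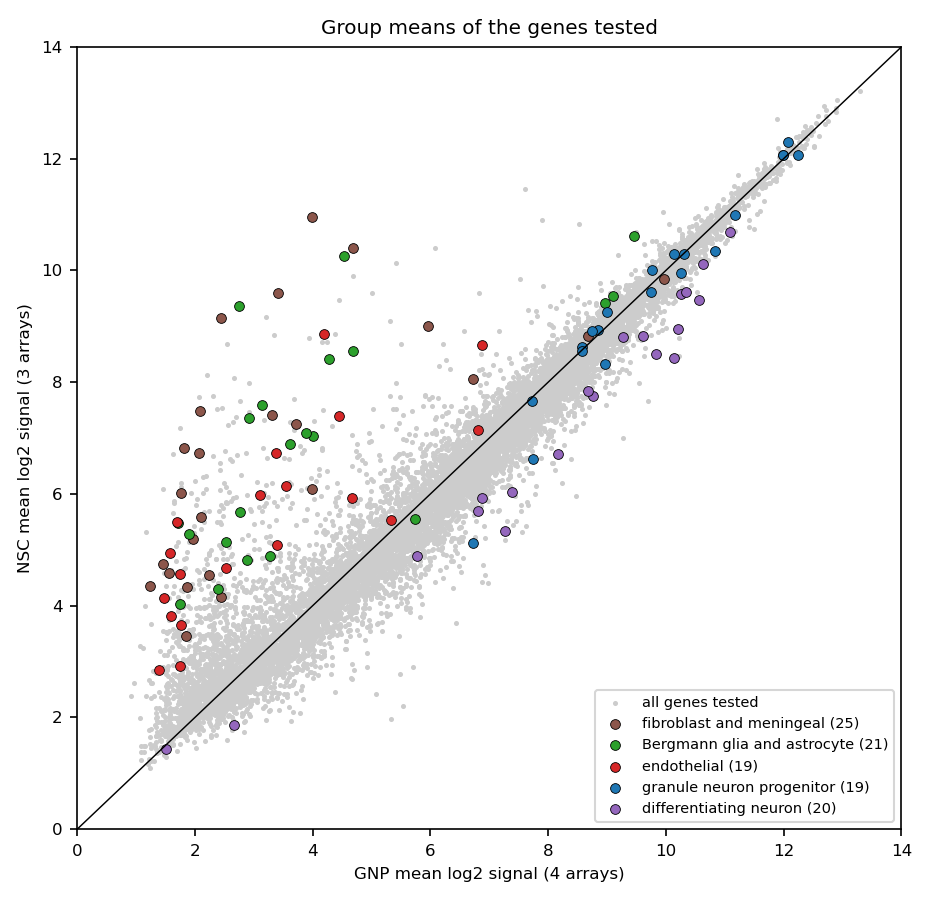
Mean log2 signal of each of the 12148 genes tested in GNPs (x axis, 4 arrays) and NSCs (y axis, 3 arrays), with 5 marker lists in colour and the line of equality. Fibroblast and meningeal, Bergmann glia and astrocyte, and endothelial markers lie above the line, most at a low GNP signal, granule neuron progenitor markers lie on or near it, and differentiating neuron markers lie below it.

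Genes of the granule lineage were largely level between the groups. Of 19 granule neuron progenitor markers tested, 1 was called higher and 4 lower in NSCs, beside 13.1% and 23.2% of all genes, and the median difference was -0.02. The share called lower is thus near that of all genes. Barhl1, a homeobox factor of the rhombic lip lineage, stood at 8.58, 8.72, 8.78 and 8.92 in GNPs and at 8.83, 9.01 and 8.93 in NSCs, overlapping, with a difference of 0.17 (95% interval -0.92 to 1.26, and -0.05 to 0.39 with the 7 arrays). Zic1, a zinc finger factor of granule cells that meningeal cells also express, differed by 0.08 (-0.09 to 0.24). Neurod1, a bHLH factor of the neuronal commitment of granule cells, was at 12.24 ± 0.017 in GNPs and 12.07 ± 0.052 in NSCs, a difference of -0.16 (-1.22 to 0.89).

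The marker called higher was Ccnd2, a D-type cyclin, by 0.23 (limma adjusted p = 0.0436). The markers that fell were Neurod6, by 1.59 (limma adjusted p = 0.0386), Nhlh1, by 1.11 (0.0311), Meis1, by 0.64 (0.00168), and Pax6, by 0.49 (0.0316). The first 2 are bHLH factors of neurons that have begun to differentiate, and the others are homeobox factors of granule cells. Meis1 alone among these 5 calls held when any 1 of the 7 arrays was left out. Another Meis1 probe set went the other way, with means of 7.37 in GNPs and 7.93 in NSCs (0.56). With GNP array 4 left out, 0 markers were called higher and 2 lower.

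Cell cycle transcripts were largely level too. Of 41 cell cycle genes, 1 was called higher, the replication helicase subunit Mcm3 (0.20, limma adjusted p = 0.0326). Only 1 was called lower, the spindle checkpoint kinase Bub1b (-0.58, limma adjusted p = 0.00887). The median difference was 0.01, and of all genes 13.1% were called higher and 23.2% lower. Mki67, the proliferation antigen, stood at 11.32, 11.15, 11.22 and 10.88 in GNPs and 11.27, 11.21 and 11.27 in NSCs, a difference of 0.10 (-0.18 to 0.39). Pcna, the sliding clamp of replication, differed by 0.03 (-0.16 to 0.21). The call for Mcm3 was lost without GNP array 1 or 3 or NSC array 1 or 2. Without GNP array 4, 4 of the 41 were called lower, and with the 7 arrays 2 were called higher and 5 lower.

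Of the Hedgehog pathway, Gli1, Ptch1 and Ccnd1 did not pass the test, while some other members did. Gli1, a transcription factor and target of the pathway, gave 7.76, 8.10, 7.94 and 8.35 in GNPs and 7.60, 8.21 and 8.14 in NSCs, and Ptch1 10.38, 10.17, 10.27 and 10.32 against 10.29, 10.24 and 10.25. The groups overlap for both, with differences of -0.05 (95% interval -0.65 to 0.54) and -0.02 (-0.26 to 0.22), where the mean over all Ptch1 probe sets differed by 0.27 (limma adjusted p = 0.0494). The target Ccnd1 differed by 0.17 (-0.03 to 0.38).

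Of 18 pathway genes, 6 rose and 2 fell, beside 13.1% and 23.2% of all genes, with a median of 0.02. The ligand-binding inhibitor Hhip rose by 2.15 (limma adjusted p = 6.39e-07), the repressor-forming Gli3 by 0.88 (0.000836), the receptor Smo by 0.32 and the co-receptor Gas1 by 0.37. The remaining calls upward were the growth factor Igf2 (5.71), which is also a meningeal gene and stands in that list too, and Spry1 (1.59), an inhibitor of receptor tyrosine kinase signalling. The falls were in Disp1, which releases the ligand (-0.48, limma adjusted p = 0.00473), and in the ciliary receptor Gpr161 (-0.42, limma adjusted p = 0.0109, and 0.0657 without NSC array 1).

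**Figure D3:**
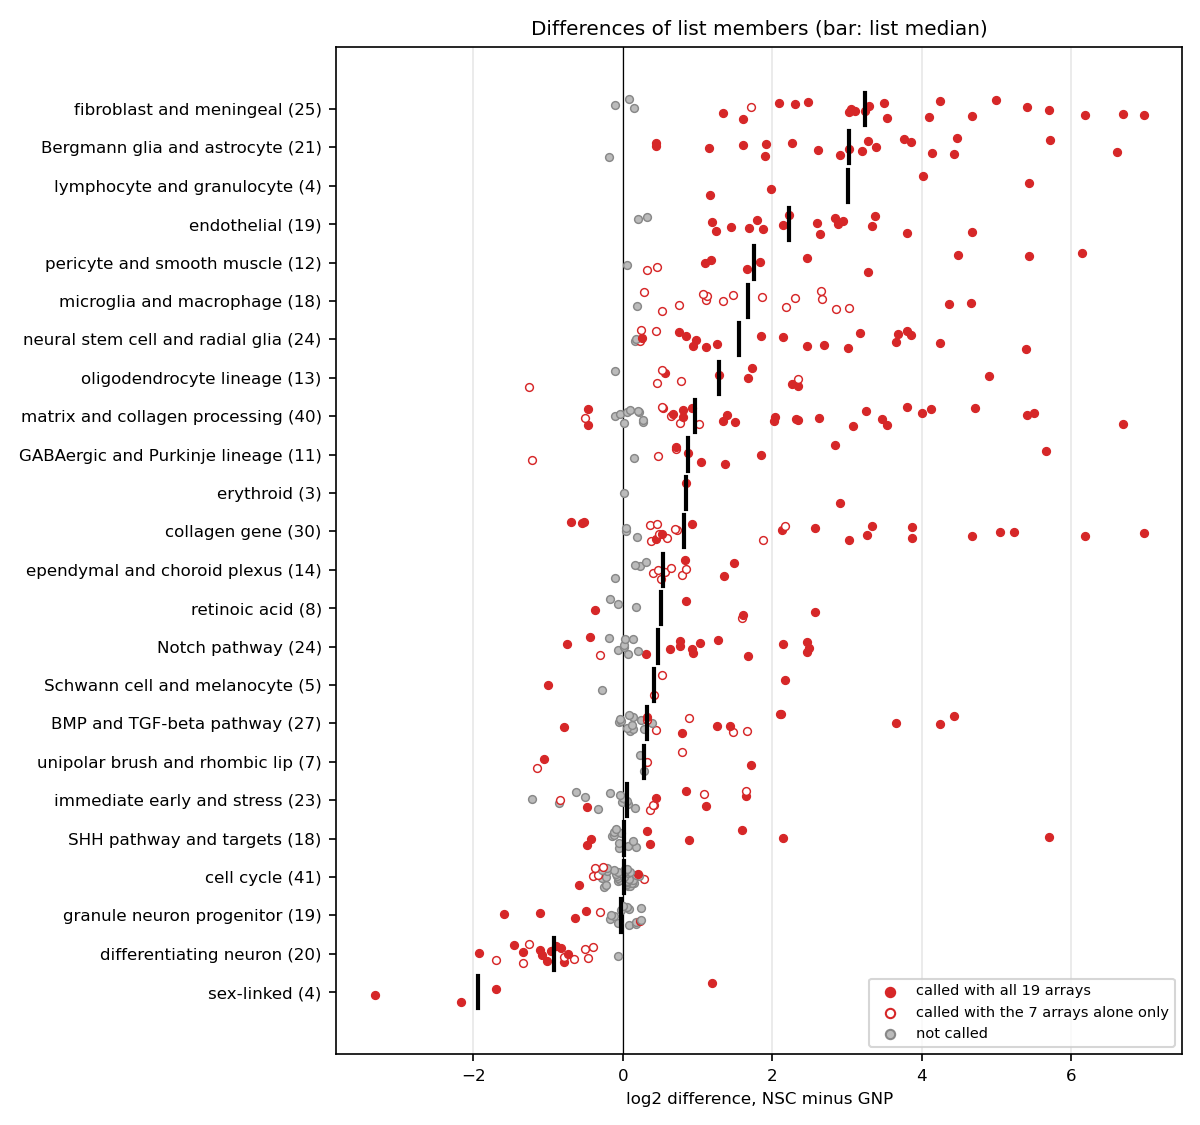
Log2 difference, NSC minus GNP (x axis), of the tested members of each of 24 gene lists (y axis, number tested in brackets, ordered by median), with a bar at the list median. Filled red points passed the test with all 19 arrays, open red points with the 7 arrays alone only, and grey points in neither. Fibroblast and meningeal genes have a median of 3.24, granule neuron progenitor genes of -0.02 and differentiating neuron genes of -0.92.

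Beyond the granule genes, the list with the largest median difference was that of fibroblasts and meninges. Of 25 such markers tested, 21 were higher in NSCs, with a median difference of 3.24, beside 13.1% of all genes called higher. Of the 25, 14 were dim in GNPs and 0 in NSCs. Dcn, a proteoglycan that binds collagen fibrils, gave 2.45, 2.18, 2.17 and 3.01 in GNPs and 9.21, 9.05 and 9.20 in NSCs. Igf2, a growth factor made by meningeal cells, gave 4.18, 4.57, 4.27 and 5.73 against 10.27, 10.49 and 10.45. Tbx18, a T-box factor of mural and meningeal cells, gave 1.78, 1.92, 1.74 and 1.85 against 7.02, 6.75 and 6.70.

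No array of either group overlaps the other for these 3 genes, and GNP array 4 is the highest of its group for Dcn and Igf2 but not for Tbx18. The differences were 6.70 (SE 0.96, limma adjusted p = 4.66e-05), 5.71 (SE 0.75, 2e-05) and, for Tbx18, 32-fold (SE 1.01 on the log2 scale, 0.00107). Foxc1, a forkhead factor of the meninges, rose by 3.03, the GABA transporter of meningeal cells Slc6a13 by 4.25, the gap junction gene Gjb2 by 3.24 and the small proteoglycan gene Lum by 5.41. The 4 markers not called were Pdgfra, Zic1, Islr and Mgp. The first 3 had a GNP mean of at least 8.67 and differed by between -0.11 and 0.15, and Mgp differed by 1.71.

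Collagen genes moved unequally. Of 30 collagen genes tested, 15 rose and 3 fell, with a median of 0.82, and with the 7 arrays 24 rose and 3 fell. Among the largest rises were the fibrillar chains Col3a1, as given above, Col1a2 from 3.14, 3.43, 3.12 and 3.97 to 9.62, 9.58 and 9.60, and Col1a1 from a dim 1.79, 2.14, 2.13 and 2.17 to 6.65, 6.69 and 6.88. The chains of basement membrane collagen, Col4a1 and Col4a2, whose RefSeq starts lie 21 bases apart on opposite strands of chromosome 8, rose by 5.23 (SE 0.49, limma adjusted p = 5.31e-07) and 5.05 (SE 0.60, limma adjusted p = 7.55e-06). The GNP arrays gave 4.60, 4.11, 4.22 and 5.77 for Col4a1 and 2.37, 2.45, 2.72 and 4.16 for Col4a2, so GNP array 4 is the highest for both. NSC arrays gave 9.93, 9.98 and 9.79, and 7.83, 8.10 and 8. Other chains of the same classes moved unequally. The fibrillar Col5a2 rose by 2.57 (limma adjusted p = 2.58e-06) and the type IV Col4a5 by 2.13 (0.000128). The fibrillar Col2a1 rose by 0.52 (a call lost without NSC array 2 or 6), and Col5a1 (0.70) and Col5a3 (0.04) did not pass the test. Neither did the type IV chains Col4a6 (0.72) and Col4a4 (0.04). With the 7 arrays Col5a1 and Col4a6 did.

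The collagens that fell were the 3 genes of collagen IX, which decorates fibrils: Col9a3 by 0.69 (limma adjusted p = 0.00433), Col9a1 by 0.55 (0.0464) and Col9a2 by 0.52 (0.0257). The call for Col9a1 was lost when any 1 array was left out other than GNP array 1, and the call for Col9a2 without GNP array 2 or 3 or NSC array 6.

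Other matrix genes rose with them. Of 40 genes for matrix glycoproteins, proteoglycans and collagen processing, 24 were called higher and 2 lower, with a median of 0.97. Nid1, which links laminin to collagen IV, stood at 3.19, 2.83, 3.08 and 4.26 in GNPs and 8.87, 8.96 and 8.69 in NSCs (difference 5.50, SE 0.27, limma adjusted p = 2.24e-10). Sparc, a collagen-binding glycoprotein, rose by 4.72, the periostin gene Postn by 4.12 and the enhancer of procollagen cleavage Pcolce by 3.25. The enzymes that modify collagen did not follow as a group: Plod1 (0.80) rose, Plod3 and Bmp1 (both -0.46) fell, and P4ha1, P4ha2, P4ha3 and Plod2 differed by between 0.05 and 0.21 without passing the test. The calls for Plod3 and Bmp1 were lost on leaving out single arrays of either group, GNP array 2 or NSC array 1 or 6 for both and also GNP array 3 or NSC array 2 for Plod3. The call for Plod1 was lost without GNP array 3 or NSC array 1 or 6.

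Other genes among the 20 largest rises came from no list. Itih5, which stabilises hyaluronan matrix, rose by 5.96 (limma adjusted p = 3.39e-09), the sphingosine phosphate receptor S1pr3 by 5.93, the lipid mediator hydrolase Pla2g7 by 5.14, the amino acid transporter Slc6a20a by 5.09 and the lipocalin Apod by 5.07. Their GNP signals lay between 1.33 and 3.53 and their NSC signals between 6.60 and 9.18, so the arrays of the groups did not overlap.

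Vessel genes were higher in the NSC arrays. Of 19 endothelial markers, 17 were called higher, with a median of 2.22, and 8 of the 19 were dim in GNPs. Cldn5, the tight junction claudin of brain endothelium, had 3.68, 3.82, 4.00 and 5.29 in GNPs and 8.81, 8.87 and 8.90 in NSCs. Cdh5, the cadherin of endothelial junctions, had 1.51, 1.47, 1.50 and 2.27 against 5.43, 5.60 and 5.45. On every NSC array both lie above every GNP array, and GNP array 4 is again the highest of its group. The differences were 4.67 (SE 0.51, limma adjusted p = 3.16e-06) and 3.81 (SE 0.65, 0.000267). Sox18, an endothelial factor, differed by 0.32 without passing the test and was called only without GNP array 4, where it differed by 0.59 (limma adjusted p = 0.000961).

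Of 12 pericyte and smooth muscle markers, 9 rose, beside 13.1% of all genes, with a median of 1.75. Pdgfrb, the receptor that recruits pericytes, gave 1.72, 2.13, 2.09 and 3.30 in GNPs and 7.87, 7.64 and 7.76 in NSCs, a difference of 5.44 (SE 0.54, limma adjusted p = 9.83e-07). Vtn, a plasma and pericyte adhesion protein, rose by 6.14 and the signalling regulator Rgs5 by 4.48. Contractile genes did not pass the test with all arrays: Acta2, smooth muscle actin, differed by 0.32 (limma adjusted p = 0.725, and 0.0383 with the 7 arrays) and Des, desmin, by 0.05. The rise was thus in pericyte genes and not detected in these contractile genes.

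The glial list came next by median difference. Of 21 Bergmann glia and astrocyte markers, 20 were higher in NSCs, with a median of 3.03, and 4 were dim in GNPs. The median signal of the list was 6.89 to 7.08 on NSC arrays, 6.98 to 7.26 on GNP tumor arrays and 6.03 to 7.30 on NEP tumor arrays. On NEP arrays it was 9.69 to 9.89, so this glial level is not particular to NSCs. The exception, the acyl-CoA synthetase Acsl6, differed by -0.18. Sparcl1, a matrix protein secreted by astrocytes, gave 4.14, 4.29, 3.88 and 5.81 in GNPs and 10.24, 10.27 and 10.25 in NSCs (difference 5.72, SE 0.31, limma adjusted p = 8.31e-10). Ttyh1, a chloride channel of glia, rose by 4.47, the astrocyte aldolase Aldoc by 4.43, the lipid carrier Apoe by 4.14 and the glutamate transporter Slc1a3, typical of Bergmann glia, by 3.86. Slc1a3 stands in the radial glia list as well.

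Of 24 markers of neural stem cells and radial glia, 19 rose, with a median of 1.56. The median signal of this list was 7.31 to 7.32 on NSC arrays and 9.33 to 9.98 on NEP arrays. It was 5.65 to 5.78 on GNP tumor arrays and 5.87 to 6.56 on NEP tumor arrays. The sizes were uneven. Ednrb, an endothelin receptor of glia, gave 2.00, 2.25, 2.28 and 4.17 in GNPs and 8.21, 8.02 and 7.98 in NSCs (difference 5.40, SE 0.39, limma adjusted p = 2.27e-08). Sox2, the stem cell factor, stood at 5.73, 4.74, 5.95 and 5.57 against 8.77, 8.65 and 8.63 (3.18, SE 0.20, limma adjusted p = 6.08e-09). Nes, the intermediate filament of neural progenitors, stood at 3.32, 4.01, 3.41 and 3.23 against 4.56, 4.34 and 4.51 (0.98, SE 0.29, limma adjusted p = 0.0157, and 0.055 without NSC array 1).

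For all 3 the groups are apart, and the rise in Nes is the smallest. Id3 and Id4, inhibitors of bHLH factors, rose by 4.25 and 3.66, Sox1 by 3.68, Tnc, a matrix protein of radial glia, by 3.80, and Fabp7, the lipid-binding protein of radial glia, by 3.02. Sox9 (0.44), Vim (0.24), Msi1 (0.23), Nfia (0.17) and Lifr (0.16) did not pass the test with all arrays, and the first 3 did with the 7 arrays.

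Ptf1a, the factor of the ventricular zone that directs the GABAergic fate, was among the 20 genes with the largest rises. It gave 2.05, 2.15, 2.04 and 2.05 in GNPs and 7.80, 7.61 and 7.83 in NSCs. The GNP arrays are all dim and lie close together, GNP array 4 included, and the NSC arrays lie far above them. The difference was 5.67 (SE 0.13, limma adjusted p = 1.13e-14), or 51-fold. Tfap2b, an AP-2 factor downstream of Ptf1a, rose by 2.84 (limma adjusted p = 1.81e-09) and Neurog1, a bHLH factor of that zone, by 1.85 (2.08e-05).

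Neurog2, chosen after its values were seen, gave 1.97, 1.78, 2.00 and 1.85 against 5.16, 5.12 and 5.13, a rise of 3.24 (limma adjusted p = 2.77e-11). In both tumors, of the same run as the NSC arrays, Ptf1a, Neurog2 and Neurog1 had group means between 1.43 and 1.99, and Tfap2b of 2.03 and 1.69. In NEPs, of the first run, all of these genes were higher than in NSCs. The NEP means were 10.15 for Ptf1a, 9.01 for Tfap2b and 6.80 for Neurog1, and Neurog2 gave 7.76, 8.14, 8.28 and 8.33. Of 11 GABAergic and Purkinje markers in all, 7 rose, beside 13.1% of all genes, with a median of 0.87. With the 7 arrays 9 rose and 1, Gad1, fell. Genes of mature GABAergic cells moved less or the other way: the Purkinje calcium buffer Calb1 differed by 1.37 (limma adjusted p = 0.0435, lost on leaving out any 1 array) and the GABA-making enzyme Gad1 by -1.22 (0.0954, and 0.000218 with the 7 arrays). Lhx1, a factor of Purkinje cells, differed by 0.15. Without GNP array 4, 6 of the 11 were called higher.

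Oligodendrocyte lineage genes rose in 7 of 13 cases, beside 13.1% of all genes, with a median of 1.29. With the 7 arrays 11 rose and 1 fell. That fall was in Bcas1, a gene of myelinating cells, at 8.32, 8.45, 8.47 and 8.64 in GNPs and 7.23, 7.30 and 7.09 in NSCs (-1.26, limma adjusted p = 0.149, and 1.06e-05 with the 7 arrays). Olig1, a bHLH factor of the lineage, gave 2.60, 2.43, 2.59 and 3.42 in GNPs and 7.59, 7.69 and 7.71 in NSCs, a difference of 4.90 (SE 0.25, limma adjusted p = 3.56e-10). Olig2 gave 2.65, 2.83, 3.16 and 4.91 against 4.66, 4.76 and 4.61, a difference of 1.29 (limma adjusted p = 0.0209) in which GNP array 4 overlaps the NSC arrays. That call was lost without GNP array 1 or 2 or NSC array 1 or 2. The myelin protein Mbp differed by 2.34 (limma adjusted p = 0.0549, and 1.55e-07 with the 7 arrays), but another of its probe sets, the brightest over GNPs and NSCs, gave -0.59. The progenitor receptor Pdgfra differed by -0.11 and the lineage factor Sox10 by 0.52, with overlapping arrays for Sox10. Other members called higher included Cldn11 (2.35), Cnp (2.26), Sox8 (1.73) and Nkx2-2 (1.67). The call for Cldn11 was lost on leaving out any 1 array other than GNP array 4. Pdgfra, the defining receptor of oligodendrocyte progenitors, was not higher in NSCs. Its means were 9.96 in GNPs, 9.85 in NSCs and 9.91 in NEPs, so it does not tell these groups apart.

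Among signalling genes, Notch receptors and ligands were higher in NSCs more often than lower. Of 24 Notch pathway genes, 13 rose and 2 fell, beside 13.1% and 23.2% of all genes, with a median of 0.47. The ligand Jag1 rose by 2.49 (limma adjusted p = 1.95e-09) and Dll1 by 1.67, the receptors Notch3 by 2.47, Notch1 by 2.14, Notch2 by 1.03 and Notch4 by 0.77, and the target Hes5 from 2.75, 2.27, 2.72 and 2.57 to 5.55, 4.66 and 4.93. The falls were in Mfng (-0.75) and Rfng (-0.44), glycosyltransferases that modify the receptors, while the related Lfng rose by 0.76. Rbpj, the DNA-binding core, differed by -0.18 and the target Hey1 by -0.06.

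Of 27 BMP and TGF-beta genes, 9 rose and 1 fell, beside 13.1% and 23.2% of all genes, with a median of 0.33. With the 7 arrays 14 rose and 1 fell, beside 17.7% and 27.1% of all genes. Targets and receptors that rose were Tgfbi, by 4.43, Id3 and Id4, as above, Id1, by 1.26, Tgfbr3, by 2.12, and Tgfbr2, by 2.10. The pseudoreceptor Bambi rose by 0.79 and the ligand Tgfb3 by 0.33, a call lost without GNP array 4 or NSC array 6. Of the antagonists, Fst rose by 1.44 (limma adjusted p = 6.58e-05) and Chrd fell by 0.79 (limma adjusted p = 0.000757). Of the BMP ligands tested, Bmp2, Bmp5, Bmp6 and Bmp7 differed by between 0.09 and 1.66 without passing the test with all arrays. Bmp2 (1.47), Bmp6 (1.66) and Bmp7 (0.45) passed it with the 7 arrays (limma adjusted p = 5.59e-06, 2.67e-05 and 0.0101). Of 8 retinoic acid genes, 3 rose and 1 fell, beside 13.1% and 23.2% of all genes. The rises were in the degrading enzyme Cyp26b1 (2.57) and the making enzymes Aldh1a2 (1.61) and Rdh10 (0.84). The fall was in the reductase Dhrs3 (-0.37). The call for Aldh1a2 was lost on leaving out any 1 array, and that for Dhrs3 without GNP array 1 or 3 or NSC array 1.

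Blood-derived cells were represented in different ways. Of 18 microglia and macrophage markers, 2 were called higher with all 19 arrays, 16 with the NEP arrays left out and 17 with the 7 arrays. The median difference was 1.67, and 17 of the 18 were dim in GNPs but 4 in NSCs. The NEP arrays set the spread for these genes, and the count depends on them. Csf1r, the receptor on which microglia depend, gave 2.03, 2.39, 2.22 and 2.56 in GNPs and 6.75, 6.59 and 6.67 in NSCs, a difference of 4.37 (limma adjusted p = 0.00996). C1qb, a complement subunit made by microglia, gave 1.77, 2.08, 1.55 and 1.86 against 4.96, 4.55 and 5.01, a difference of 3.03 (limma adjusted p = 0.0663, and 7.19e-07 with the 7 arrays). The arrays of the groups do not overlap for either gene. In GNP and NEP tumors these genes had means of 6.59 and 5.54 (Csf1r) and 6.85 and 5.59 (C1qb). The pan-leukocyte phosphatase Ptprc gave 2.52, 2.63 and 2.24 on the NSC arrays, near the array median of 2.56.

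The granulocyte genes S100a8 and S100a9 were higher on each NSC array than on every other array of the study. Of 16 lymphocyte and granulocyte genes listed, 4 passed the filter on dim values, and all 4 are granulocyte genes. S100a8 gave 1.66, 1.72, 1.98 and 1.66 in GNPs and 7.49, 7.48 and 6.58 in NSCs. Its neighbour S100a9, whose product forms a calcium-binding dimer with that of S100a8, gave 1.95, 1.72, 1.46 and 1.39 against 6.25, 5.96 and 4.74. GNP arrays are dim for both, and NSC array 6 is the lowest NSC array for both. The differences were 5.43 (SE 0.66, limma adjusted p = 1e-05) and 4.02 (SE 0.49, 1.03e-05).

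Ngp, a neutrophil granule protein, had 4.17, 3.17 and 3.27 on the NSC arrays and a mean of 1.55 in GNPs, and Camp, the cathelicidin, 2.74, 3.14 and 2.84 and a mean of 1.73. Both passed the filter through the NSC arrays alone, so their difference was fixed by it. The same held for 4 of the 1586 genes called higher. The 3 NSC arrays lay above the other 16 arrays of the study for 135 of the 1586 (8.51%, beside 2.2% of all genes tested). A gene of this set lies above all GNP arrays by definition, so the larger share among called genes is no finding. Others in that set, chosen after their values were seen, were Synm, an intermediate filament protein (2.70), the receptor phosphatase of vessels Ptprb (2.64), the stefin Stfa2l1 (2.12) and the ubiquitin ligase Mid1 (1.93). Of 3 erythroid genes, Car2, a carbonic anhydrase that glia also make, rose by 2.91 and the globin Hbb-b2 by 0.84, while the globin Hba-a2 differed by 0.02.

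Choroid plexus and ependymal markers were called higher in 3 of 14 cases and in 10 with the 7 arrays, beside 13.1% and 17.7% of all genes. Their median was 0.54, and 6 were dim in GNPs and 6 in NSCs. Ttr, the thyroxine carrier of the choroid plexus, gave 11.83, 11.61, 11.82 and 12.28 in GNPs and 12.79, 12.72 and 12.65 in NSCs (0.83, limma adjusted p = 0.0131), so it was high on all 7 arrays. Of 7 unipolar brush cell and rhombic lip markers, Msx1 rose (1.72), 3 rose with the 7 arrays, and Olig3 fell (-1.06, limma adjusted p = 0.0213, and 0.0736 with the 7 arrays), a call also lost without GNP array 1, 2 or 3 or NSC array 1. Eomes, the factor of unipolar brush cells, differed by -1.15 (limma adjusted p = 0.094, and 0.000774 with the 7 arrays). Of 5 Schwann cell and melanocyte markers, Pmp22 rose (2.17) and the neurotrophin receptor Ngfr fell (-1), while 2 rose without GNP array 4 and 3 with the 7 arrays.

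**Figure D4:**
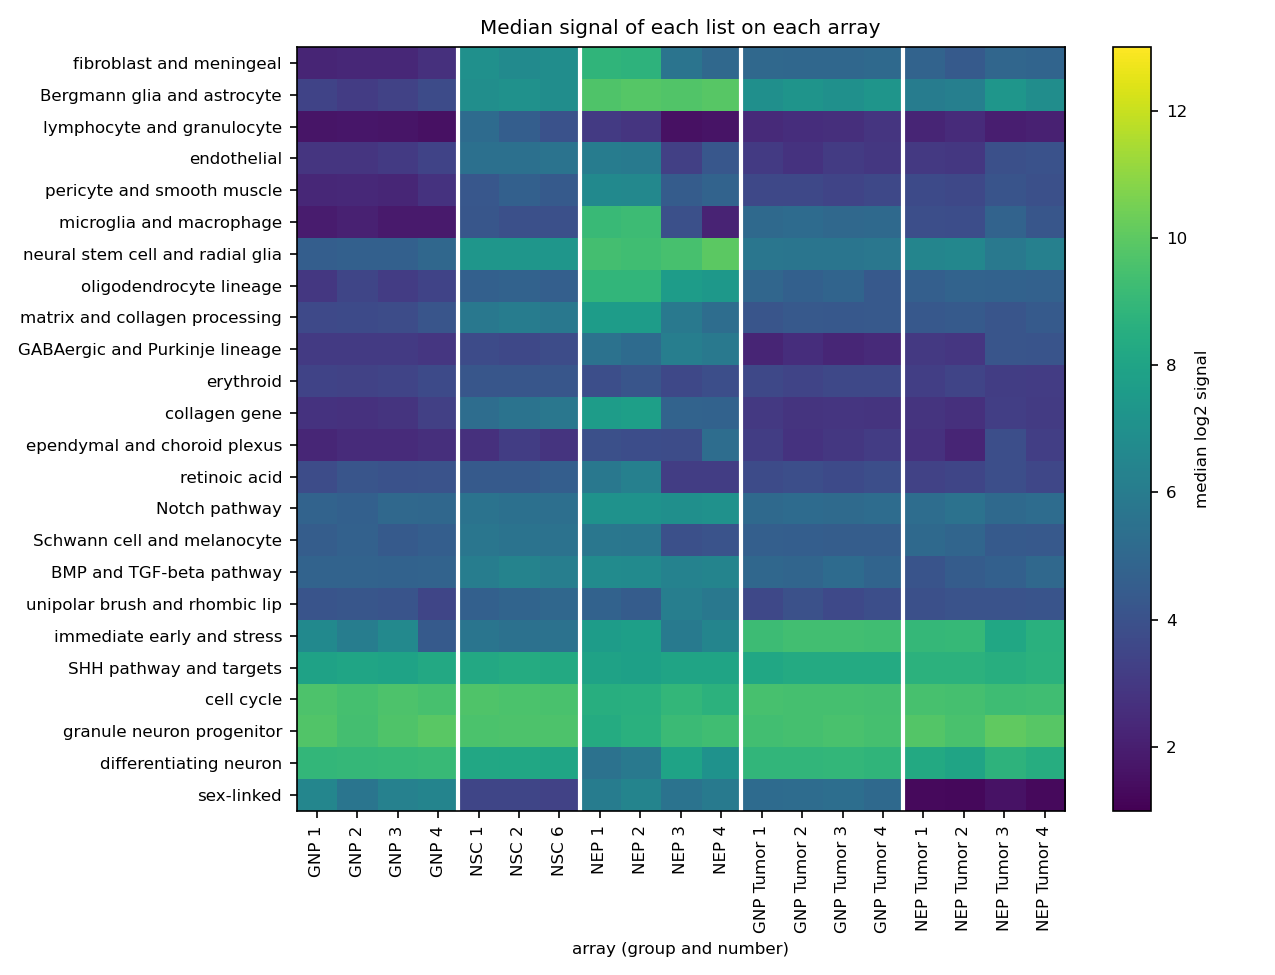
Median log2 signal (colour) of each of the 24 lists (rows, ordered as by their NSC minus GNP median) on each of the 19 arrays (columns, by group). The 3 NSC columns look alike, with fibroblast and meningeal medians of 6.75 to 7.02 against 2.25 to 2.67 on the GNP columns, while granule neuron progenitor and cell cycle lists are as bright as in GNPs.

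Genes of neurons leaving the cycle were lower in NSCs. Of 20 differentiating neuron markers, 11 fell, beside 23.2% of all genes called lower, with a median of -0.92, and with the 7 arrays 19 fell. Mapt, the microtubule protein tau, gave 7.16, 7.20, 7.06 and 7.61 in GNPs and 5.27, 5.26 and 5.48 in NSCs, and fell by 1.92 (SE 0.13, limma adjusted p = 1.27e-08). Syt1, the calcium sensor of synaptic vesicles, fell by 1.45, the neurofilament gene Nefl by 1.34 and the growth cone protein gene Gap43 by 1.08. The call for Nefl was lost without GNP array 4 and without any 1 NSC array, with adjusted p between 0.0518 and 0.0621.

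Cntn2, an adhesion molecule of young granule neurons, gave 10.19, 10.15, 10.14 and 10.10 in GNPs and 8.46, 8.45 and 8.40 in NSCs, apart by 1.70 (limma adjusted p = 0.101 with all arrays and 2.52e-07 with the 7 arrays). Of the 20, 2 were dim in NSCs, Cbln3 (1.86) and Gabra6 (1.43). Among the 20 genes with the largest falls were further neuronal genes: Stmn4 (-2.51), a microtubule regulator of neurons, Lynx1 (-2.38), a modulator of acetylcholine receptors, L1cam (-2.27), an axonal adhesion molecule, and Gpc2 (-2.09), a glypican of growing axons. L1cam stood at 9.22, 9.19, 9.36 and 9.31 in GNPs and at 6.91, 7.01 and 7.09 in NSCs, with 6.42 and 6.49 in GNP and NEP tumors. Lynx1 likewise had tumor means of 3.84 and 3.71 beside 4.55 in NSCs, whereas Stmn4 had 9.14 and 7.81 beside 5.96.

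The other large falls were of mixed kind. Rasgef1c (-2.79), Myh7b (-2.75), Wscd2 (-2.70), Zmat4 (-2.66), Tmem87a (-2.56), Hddc3 (-2.45), Tub (-2.24), Sez6l2 (-2.21), Cnpy1 (-2.08), A930009L07Rik (-2.04), Rcan2 (-2.03), Necab3 (-2.03) and the noncoding Miat (-2.02) were all called lower, with no overlap between the groups. Such a lack of overlap held for 3655 of all 12148 genes tested. The largest, AI506816, gave 6.29, 6.46, 6.22 and 2.34 in GNPs and 2.30, 1.66 and 1.96 in NSCs, so that GNP array 4 lay at the level of the NSC arrays. Its difference was -3.36 with that array and -4.35 without it. The call for A930009L07Rik was lost on leaving out any 1 NSC array.

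Sex-linked genes differed too. Xist, the noncoding RNA that silences an X chromosome in females, gave 9.47, 9.52, 9.49 and 9.49 in GNPs and 10.64, 10.69 and 10.72 in NSCs (1.19, limma adjusted p = 0.000132). The Y-linked demethylase gene Kdm5d gave 5.87, 4.76, 5.55 and 5.92 against 2.50, 2.18 and 1.93 (-3.32, limma adjusted p = 1.39e-08), and Eif2s3y and Uty fell by 2.17 and 1.70. Xist and Eif2s3y were both above the array median on every array of both groups. Kdm5d and Uty were above it on every GNP array and under it on every NSC array, with NSC means of 2.21 and 1.93. The balance between the sexes' transcripts thus moved with the groups, and its part in other differences was not tested.

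Immediate early genes, which respond within minutes to stimulation or cell dissociation, were uneven. Of 23 such genes, 4 rose and 1 fell, beside 13.1% and 23.2% of all genes, with a median of 0.06. Without GNP array 4 the counts were 5 and 7, and with the 7 arrays 9 and 1. Egr1 rose by 1.11 (limma adjusted p = 2.66e-06) and Junb by 1.65. Fos gave 11.51, 11.63, 11.54 and 9.64 in GNPs and 11.10, 11.12 and 11.23 in NSCs, a difference of 0.07, which turned to -0.41 (limma adjusted p = 0.000896) without GNP array 4. Jun gave 11.36, 11.24, 11.38 and 10.01 against 10.47, 10.54 and 10.49, and Dusp1, a phosphatase induced with them, fell by 0.48 (limma adjusted p = 0.0347, and 0.0786 with the 7 arrays), a call lost on leaving out any 1 array other than GNP array 4. On these genes GNP array 4 lay below the other GNP arrays.

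Malat1, a nuclear noncoding RNA chosen after its values were seen, had means of 6.08 in GNPs and 6.96 in NEPs, in the first run, and of 10.40, 10.20 and 10.28 in NSCs, GNP tumors and NEP tumors, in the second. Its NSC minus GNP difference of 4.32 (limma adjusted p = 1.16e-09) cannot be told apart from the distance between the runs, and its other probe sets gave differences from -0.97 to 4.10. Among the genes called higher, 88 of 1586 (5.55%) had all 11 arrays of the second run above all 8 of the first, and among those called lower 209 of 2823 (7.4%) had them below. Over all genes tested these shares were 1.04% (126) and 2.18% (265). Runs that lie apart set the NSC and GNP arrays apart by definition, so the larger shares among called genes are no finding.

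Among genes called and at least 2-fold apart, the runs lay apart in the same way for 14 of 598 higher and 21 of 280 lower. Within the second run, and sharing the NSC arrays with the comparison above, Col3a1 was 3.64 higher in NSCs than in GNP tumors (limma adjusted p = 0.000959) and 4.75 higher than in NEP tumors, and Ptf1a 5.75 and 5.86 higher. Aqp4 was 1.13 and 2.20 higher (limma adjusted p = 0.129 and 0.00604), Olig1 -0.32 and -0.64, and Mapt -1.52 and -1.59 (limma adjusted p = 8.29e-08 and 5.92e-08). The tumors are another tissue state and do not stand in for GNPs.

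**Figure D5:**
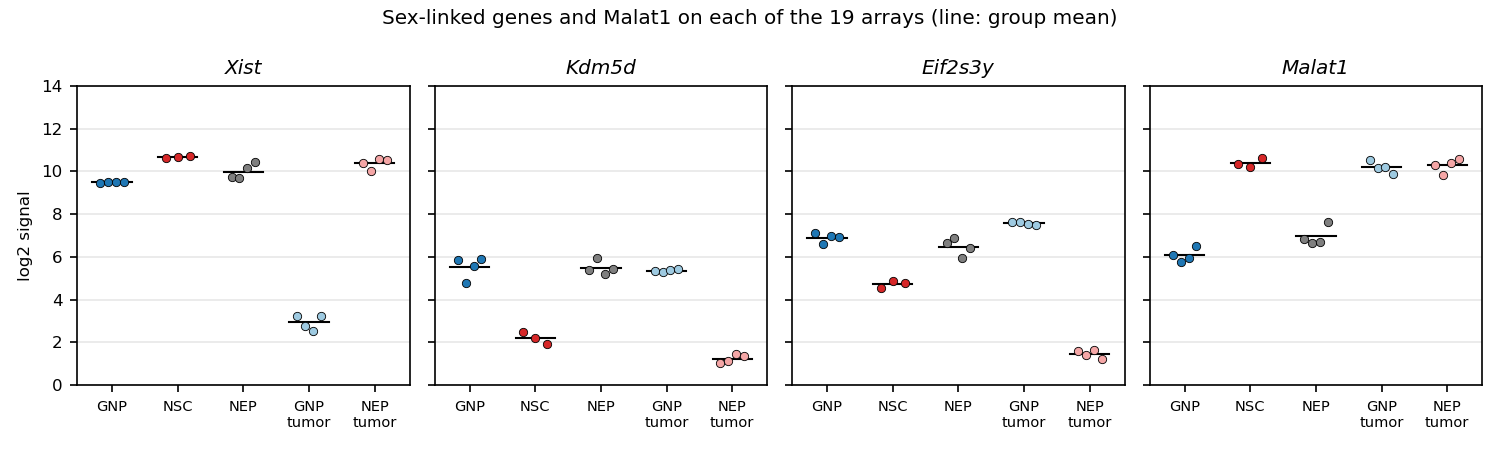
Log2 signal (y axis) of Xist, Kdm5d, Eif2s3y and Malat1 on each array of the 5 groups (x axis, a point per array, a line at the group mean). NSC arrays have more Xist and less Kdm5d and Eif2s3y than GNP arrays, and Malat1 is near 10 in the 3 groups of the second run (10.40, 10.20 and 10.28) and lower in GNPs and NEPs (6.08 and 6.96).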

How the data were processed

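The authors deposited log2 signals per probe set. The submitters' processing notes name RMA and Affymetrix Expression Console, and each array took 100 ng of total RNA, per the labels' protocols. Versions, the log base and the centring are not given in the sources used here. The base was taken as 2: Cre minus BioB hybridisation spike-ins differed by 5.29 to 6.16 over the arrays, where their concentrations give 6.06 in log2, 4.20 in natural log and 1.82 in log10. Values ran from 0.29 to 13.37. The number of arrays limits the precision.

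Of 45101 probe sets, 34945 carried 1 gene symbol in the platform annotation. A gene was read by the probe set brightest on average over 19 arrays and was tested where that was at or above the array median on at least 3 arrays. Group means were fitted over 19 arrays with limma 3.58.1 (lmFit, eBayes) in R 4.3.3, two-sided, with Benjamini-Hochberg adjustment over 12148 genes and calls at an adjusted p below 0.05. Every p in the text is from this fit unless the 7 arrays are named. Differences are NSC minus GNP. Of 2807 called genes that have more than 1 probe set, 285 (10.2%) had a second one called the opposite way. Tested on simulated data for the same comparison, with 12148 genes, 171 of 200 genes changed by 1 were recovered (85.5%), with 12 false calls (6.56%). The simulation changed only these 200 genes and held no run difference, while 36.3% of genes were called in the data. Its share of false calls therefore does not carry over to the calls reported here.

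The arrays, gene lists and rules were chosen with earlier results of these data known. Named genes are 4 markers, the 20 largest called differences each way, and for each list up to 5 called members with the largest differences, up to 3 called against the majority and up to 3 not called with the highest means, plus Ptch1, Gli1, Nes, Vim, Sox2 and Sox9. Further list members are named to complete a group. Alternatives were the 7 arrays alone, all groups but NEP (added after seeing the data), other probe set rules, filters and scalings, a variance trend, array weights and leaving out each array.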

Additional observations from a re-analysis of the deposited data

Results flagged for a closer look

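Single GNP arrays stood far from the other 3 for 20 of the 197 genes named, where chance alone gives about 1 in 20 such groups. For 14 of these genes the array was GNP array 4. It was the highest for Col3a1 (5.35), Aqp4 (4.67), Sparc (6.98), Cdh5 (2.27), Ednrb (4.17), Fst (2.93) and Car2 (4.99), all called higher in NSCs. It was the lowest for the immediate early genes Fos (9.64), Jun (10.01) and Dusp1 (9.47) and for Olig3 (2.22), AI506816 (2.34), Sfrp1 (10.36) and Wdr11 (8.33). GNP array 2 was the highest for Ptf1a (2.15, against 2.04 to 2.05 on the others), Synm (2.65) and Stfa2l1 (1.58) and stood apart for Plod2 (6.77). GNP array 1 was the lowest for Mcm3 (9.80) and Col1a1 (1.79).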

How the results depend on the processing

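The counts of genes called kept within 1.5 times of their values under the alternatives, with these exceptions. Called and at least 2-fold lower were 179 genes when probe sets were averaged and 173 with the filter at the 75 percentile, in place of 280, and with array weights, whose estimate did not converge, 2974 genes were called higher and 4521 lower. Leaving out each array of the groups in turn gave 1236 to 1533 genes called higher, 2174 to 2607 lower, 567 to 591 called and at least 2-fold higher and 267 to 296 at least 2-fold lower. Against GNP tumors, leaving out each NSC array gave 2599 to 2702 genes called higher and 2264 to 2331 lower. With all groups but NEP, 2190 genes were called higher and 3393 lower. Among the named genes, the mean of all probe sets turned Ptch1 to 0.27, Sfrp1 to 0.40 and Smad1 to 0.29, the probe set highest over the GNP and NSC arrays turned Mbp to -0.59, and leaving out single arrays gave Fos values from -0.41 (without GNP array 4) to 0.25. With the 7 arrays alone, 32 named genes passed the threshold anew and 2, Dusp1 and Olig3, no longer did.

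No paired analysis was possible because only 1 NSC title carries a replicate number and no GNP title shares it. Dim GNP signals limit what the folds can show, since low array signals are compressed. Run cannot be a term of the fit, as each of the groups lies in 1 run.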

Other observations

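A set of genes was lower on the NSC arrays than on all other 16 arrays of the study. It holds 447 of the 2823 genes called lower (15.8%), beside 4.21% of all genes tested. A gene of this set lies below all GNP arrays by definition, so the larger share among called genes is no finding. Examples, chosen after their values were seen, were Clk4, a kinase that phosphorylates splicing factors, at 5.57, 5.85 and 5.64 on the NSC arrays and 7.13, 6.99, 6.87 and 7.20 on the GNP arrays (-1.36, limma adjusted p = 5.51e-08), Ankrd16 (-1.47), Rasgef1b (-1.45) and Wdr11 (-0.89). Their means in GNP and NEP tumors, of the same run as the NSC arrays, were 7.44 and 7.24 for Clk4 and 8.62 and 8.34 for Wdr11.

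Further genes outside the lists, chosen after their values were seen, were also higher in NSCs. Cd34, a sialomucin of endothelial and haematopoietic cells, rose by 4.23 (limma adjusted p = 3.06e-05). Vwf, the platelet adhesion factor made by endothelium, rose by 3.53 (5.32e-05) and the transcription factor Mecom by 1.87 (2.49e-08). C1ql1, a synaptic organiser of the cerebellum, rose by 1.45 (8.22e-06).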
